A study of Arabidopsis thaliana with 2 samples.

Results

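The WRKY transcription factor genes of Arabidopsis thaliana were examined for regions listed from an immunoprecipitation of PRR5. PRR5 is a pseudo-response regulator that represses transcription in the circadian clock. Members were all protein-coding genes whose symbol or synonym in the RefSeq gene table is WRKY followed by a number. They were 72 of 27444 protein-coding genes, and 5 of them have another main symbol in the table: ZAP1 is WRKY1, TTG2 is WRKY44, ABO3 is WRKY63, TTR1 is WRKY16 and RRS1 is WRKY52. Members were thus chosen by name. A gene was counted as near a region when it held the centre of a region of the deposited list or had such a centre within 1 kb, at either side. Nearness, reads and positions are the values that the rule names, so they are given as a description without a test.

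The 2 libraries came from DNA immunoprecipitated with an antibody against GFP (ChIP) and from input DNA, with 1 library per group. Both groups were whole prr5 mutant plants in which FLAG-PRR5-GFP, PRR5 with a tag at either end, was driven by the promoter of PRR5. All plants were 18 days old, had grown under 12 h light and 12 h dark on medium with 2% sucrose, and were taken 10 h after the light came on. The tagged protein thus stands in for the lost native one, and whole plants do not tell in which cells a region was bound. The authors listed 8983 regions, ChIP against input, with 5112270 reads in all, and their deposited table does not say which library its read counts are from. There was no replicate, so no spread between plants or libraries can be given. Beside read numbers stand exact 95% Poisson intervals, and beside shares Clopper-Pearson intervals of the same level. The Poisson intervals cover counting error alone and take reads as independent molecules. The Clopper-Pearson intervals take genes as independent draws and do not cover error of the ChIP. FDR is the authors' false discovery rate of a region in ChIP relative to input, given in percent. The list holds regions with FDRs as high as 100%, so a listed region need not be a bound one. Of the best regions at WRKY genes, 12 had an FDR above 5%.

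WRKY proteins are a large plant family of transcription factors named after a conserved amino acid stretch that binds the W-box, a short DNA element with a TTGAC core. Many act in immunity, in the salicylic acid and jasmonic acid pathways, in senescence and in responses to nutrients, heat and drought. Group I proteins carry a pair of WRKY domains. Group II and group III proteins carry a single one and differ in the zinc finger that completes it, and group II is divided into IIa to IIe. The published grouping was used here, in which group I had 14 members, group II 44 and group III 14.

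Of the 72 WRKY genes, 39 had a region in them or within 1 kb (54.2%, 42.0 to 66.0%), against 28.0% of all protein-coding genes (7691 of 27444). The share was 44.5% (41.1 to 48.0%) among 842 other genes named as transcription factors, a set found by family names alone. It was 48.5% (38.3 to 58.7%) among 99 genes named NAC and a number, and 40.8% (32.1 to 49.9%) among 125 genes named MYB and a number. The WRKY share was higher than that of all genes, and its interval overlapped those of the other transcription factor genes and both families. Members were chosen with earlier results of these data known. A region with an FDR of 5% or less was the best one at 27 WRKY genes (37.5%, 26.4 to 49.7%), against 20.1% of all protein-coding genes and 33.6% (30.4 to 36.9%) of the other transcription factor genes. No test was run on these shares.

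Within the family, group II genes were near regions in the largest share. Group II had a region at 30 of its 44 genes (68.2%, 52.4 to 81.4%). Group I had a region at 5 of 14 (35.7%, 12.8 to 64.9%) and group III at 4 of 14 (28.6%, 8.39 to 58.1%). The interval of group II overlapped those of group I and group III, and the difference was not tested. With an FDR of 5% or less the counts were 4 of 14 in group I, 20 of 44 in group II (45.5%, 30.4 to 61.2%) and 3 of 14 in group III. Gene length did not run in the same order: the median was 2445 bp in group I, 2062 bp in group II and 1571 bp in group III, against 2078 bp over all protein-coding genes. In the whole family the median length was 2288 bp for genes with a region and 1760 bp for those without. Over all protein-coding genes these medians were 2147 and 2052 bp, and the part of length in the counts was not tested.

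**Figure D1:**
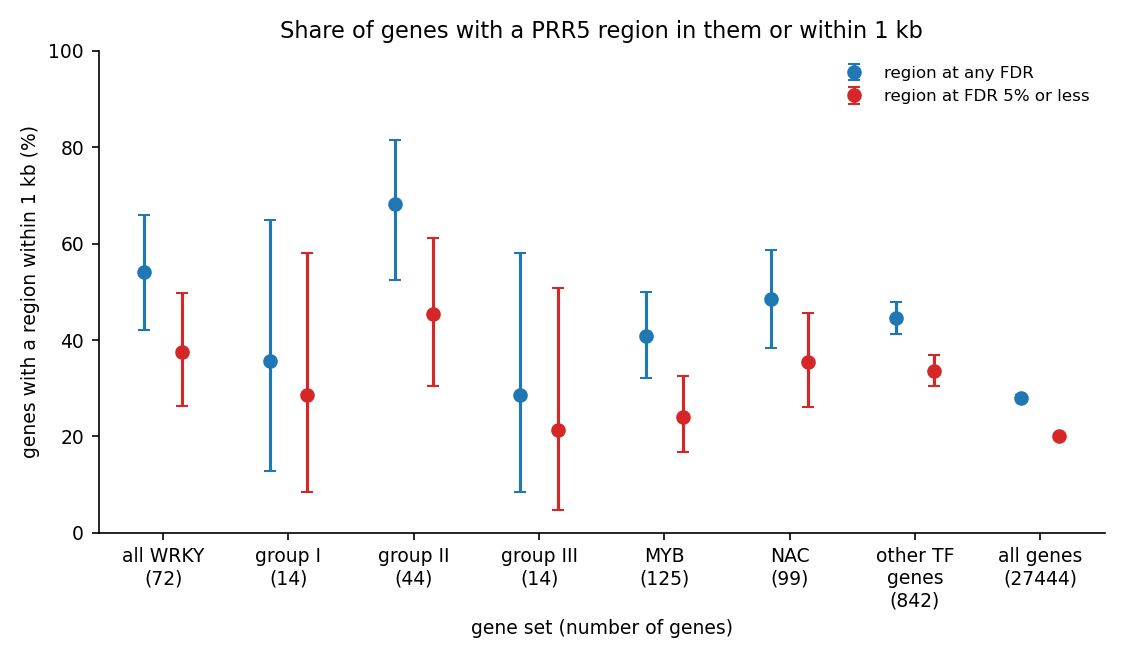
Share of genes (percent) with a region centred in them or within 1 kb, by gene set, with the number of genes in parentheses. Points are shares and bars exact 95% Clopper-Pearson intervals, blue for a region at any FDR and red for a best region at an FDR of 5% or less. Group II stands at 68.2% and all WRKY genes at 54.2%, against 28.0% of all protein-coding genes, and the intervals of groups I and III, with 14 genes each, are wide.

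Among the subgroups of group II, IId had a region at 6 of 7 genes, IIe at 6 of 8, IIa at 2 of 3, IIb at 5 of 8 and IIc at 11 of 18. The best region had an FDR of 5% or less at 5 of these 5 genes in IIb, 5 of 6 in IId, 6 of 11 in IIc, 3 of 6 in IIe and 1 of 2 in IIa. Over all protein-coding genes with a region this was so for 71.7%, and over the WRKY genes with a region for 69.2%. Median reads of the best region were 1899.5 in IIa, from 2 genes with 52 and 3747 reads, 1013 in IId, 381 in IIb, 125 in IIe and 75 in IIc. IId and IIe were thus close in the number of genes with a region and far apart in reads.

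Over the 39 genes the best region, which is the one with the lowest FDR, held 21 to 3747 reads, with a median of 256 and quartiles of 82 and 1013. The median was 337 reads over all 7691 genes with a region. The 5 genes of group I had a median of 1223 reads, the 30 of group II 182 and the 4 of group III 174.5. With 3 kb beside genes the medians were 572 reads in group I, 502 in group II and 256 in group III, so groups I and II then lay close together. With only regions at an FDR of 5% or less the median of group II was 523 reads. The median of all genes lay between the quartiles of the WRKY genes, and the largest region of the list held 26570 reads. More than 1000 reads were found at 10 of the 39 WRKY genes (25.6%), against 24.1% of all genes with a region, and fewer than 100 at 12 (30.8%), against 23.9%. All 49 regions near WRKY genes together held 29163 reads, 0.570% of the reads in regions, and were 0.545% of all regions.

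**Figure D2:**
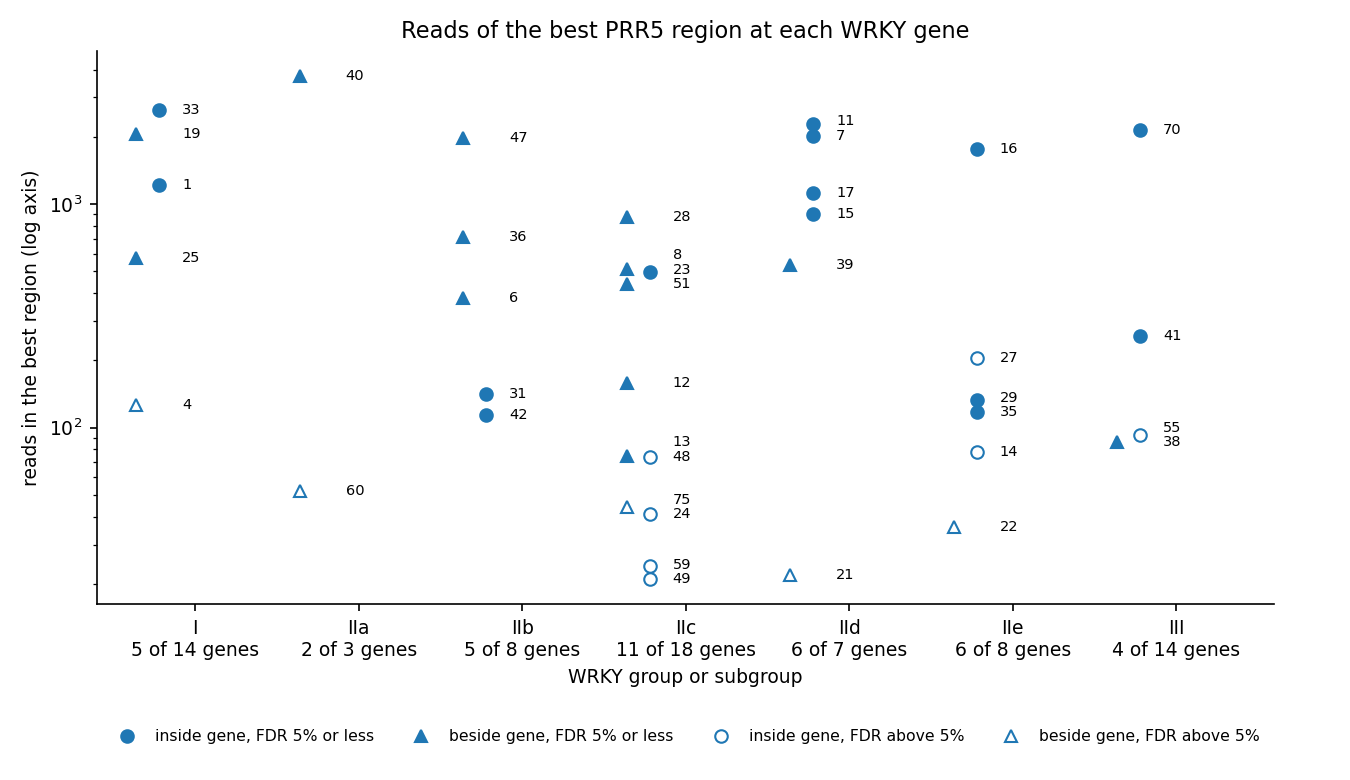
Reads of the best region (log axis) at each of the 39 WRKY genes with a region, by group or subgroup. Each point is a gene, labelled with its WRKY number; circles are regions centred inside the gene and triangles regions beside it, filled where the FDR was 5% or less and open where it was higher. WRKY40 has the most reads, with 3747, and 4 of the 6 IId genes, WRKY7, WRKY11, WRKY15 and WRKY17, lie between 900 and 2287 reads with the region inside the gene.

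The IIa proteins WRKY18, WRKY40 and WRKY60 interact with each other and act in defence and abscisic acid signalling, WRKY40 as a repressor. WRKY40 (AT1G80840) had the region with the most reads of the family, 3747 (3628 to 3869), at chr1:30385648-30385773, rank 361 of 8983 by FDR. Its centre lay 200 to 300 bp beside WRKY40 and inside the neighbour AT1G80850, at an FDR of 1.06e-64%. WRKY60 (AT2G25000) had 52 reads (38.8 to 68.2) at an FDR of 14.7%, with AT2G24990 also within 1 kb of the region. WRKY18 (AT4G31800) had none within 1 kb and a region of 436 reads between 1200 and 1300 bp away, at an FDR of 4.31e-19%. The 3 relatives thus differed widely in reads, and with the nearest gene only neither WRKY40 nor WRKY60 had a region.

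IId proteins bind calmodulin, and WRKY7, WRKY11 and WRKY17 are known as negative regulators of resistance to Pseudomonas syringae. WRKY11 (AT4G31550) had 2287 reads (2194 to 2383) in a region of 238 bp at chr4:15290817-15291055, at an FDR of 1.14e-19%. WRKY7 (AT4G24240) had 2018 reads (1931 to 2108) at chr4:12573246-12573386, at an FDR of 4.66e-61% and rank 396. WRKY17 (AT2G24570), the closest relative of WRKY11, had 1126 reads (1061 to 1194) at chr2:10438130-10438267, at an FDR of 1.45e-13%. In these 3 genes the centre lay inside the gene, and no other protein-coding gene lay within 1 kb of the region. WRKY15 (AT2G23320), which acts in responses to oxidative and osmotic stress, had 900 reads inside the gene at an FDR of 5.83e-09%, and AT2G23321 lay within 1 kb of the region.

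The other IId genes had their regions elsewhere or none. WRKY39 (AT3G04670), linked to the heat response, had 533 reads (489 to 580) at chr3:1269045-1269173, between 700 and 800 bp from the gene and nearer to CLPS3, at an FDR of 1.27e-29%. WRKY21 (AT2G30590) had 22 reads (13.8 to 33.3) at an FDR of 50.8%. A region of 1534 reads at chr2:13037255-13037759 lay between 1700 and 1800 bp from WRKY21. WRKY74 (AT5G28650) had no region within 1 kb.

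In subgroup IIb, WRKY47 (AT4G01720) had the WRKY region with the lowest FDR, 2.16e-111%, at rank 149. It held 1981 reads (1895 to 2070) at chr4:744073-744219, between 600 and 700 bp beside the gene, with no other protein-coding gene within 1 kb. A further region inside WRKY47 held 202 reads at an FDR of 1.05%. WRKY36 (AT1G69810), a repressor of the light-response gene HY5, had 712 reads (661 to 766) in a region inside the neighbour AT1G69800, at an FDR of 3.93e-15%. WRKY6 (AT1G62300), which acts in senescence and represses the phosphate exporter gene PHO1, had 381 reads (344 to 421) between 900 and 1000 bp beside it. WRKY42 (AT4G04450), likewise a repressor of PHO1, and WRKY31 (AT4G22070) had 114 and 142 reads inside the gene. WRKY9, WRKY61 and WRKY72 had no region within 1 kb. The best regions of IIb thus held more reads beside the gene, 381 to 1981 at 3 genes, than inside it, 114 and 142 at WRKY42 and WRKY31.

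Subgroup IIc, the largest, had no region above 1000 reads. WRKY28 (AT4G18170), an activator of the salicylic acid synthesis gene ICS1, had 873 reads (816 to 933) at chr4:10060375-10060526, between 700 and 800 bp beside the gene, at an FDR of 4.27e-31%. WRKY8 (AT5G46350) had 513 reads (470 to 559) at chr5:18804607-18804758, between 600 and 700 bp beside it, at an FDR of 2.41e-26%. WRKY51 (AT5G64810), which with WRKY50 represses jasmonic acid signalling, had 438 reads between 100 and 200 bp beside it at an FDR of 1.04e-14%. WRKY28, WRKY8 and WRKY51 had no other protein-coding gene within 1 kb of the region.

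WRKY23 (AT2G47260), an auxin-responsive gene, had 495 reads inside the gene at an FDR of 0.00272%, and a region of 689 reads lay between 1500 and 1600 bp from it. WRKY12 (AT2G44745) and WRKY13 (AT4G39410), which act in opposite directions on flowering time, had 159 and 75 reads between 800 and 1000 bp beside the genes. WRKY13 had 4 regions in all, more than any other member, with 25 to 180 reads each and 396 together. The best of them, with 75 reads, had an FDR of 0.817%. Those with 180, 116 and 25 reads had FDRs of 30.8, 50.9 and 100%. The other IIc genes with a region were WRKY24, WRKY48, WRKY49, WRKY59 and WRKY75, with 21 to 74 reads and FDRs of 24.6 to 100%. WRKY75 (AT5G13080), which acts in phosphate starvation and senescence, had 44 reads, and its close relative WRKY45 had no region within 1 kb. WRKY43, WRKY50, WRKY56, WRKY57, WRKY68 and WRKY71 likewise had none.

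In subgroup IIe, WRKY16 (AT5G45050, TTR1), whose protein joins a WRKY domain to an immune receptor, had 1768 reads (1687 to 1852) at chr5:18181808-18181946. The centre lay inside the gene within 100 bp of its start or end, which were not told apart. AT5G45060 lay within 1 kb, and the FDR was 1.14e-29%. The other 5 IIe genes with a region had few reads. WRKY27 (AT5G52830) had 205 reads at an FDR of 8.29%, WRKY29 133 at 0.747%, WRKY35 117 at 1.31%, WRKY14 78 at 87.2% and WRKY22 36 at 31.6%. WRKY22 (AT4G01250) and WRKY29 (AT4G23550) act downstream of the flagellin receptor. A region of 2540 reads at chr4:526389-526520 lay between 2200 and 2300 bp from WRKY22. WRKY65 and WRKY69 had no region within 1 kb.

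In group I, WRKY33 (AT2G38470), a key activator of camalexin synthesis and of resistance to necrotrophic fungi, had the most reads. Its region at chr2:16109894-16110159 held 2640 reads (2540 to 2743) inside the gene, at an FDR of 1.26e-16%, and AT2G38480 lay within 1 kb. WRKY19 (AT4G12020), whose protein also has receptor and kinase domains, had 2051 reads (1963 to 2142) in the longest of the 39 best regions, 999 bp at chr4:7200213-7201212. That region was centred inside the neighbour AT4G12010, between 800 and 900 bp from WRKY19. WRKY1 (AT2G04880) had 1223 reads (1155 to 1294) inside the gene at chr2:1719023-1719162, at an FDR of 6.05e-16%.

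WRKY25 (AT2G30250), a relative of WRKY33 that acts in heat tolerance, had 572 reads within 100 bp beside it, in a region inside the neighbour U2B''. WRKY4 (AT1G13960) had 126 reads at an FDR of 15.9%. The other 9 group I genes had no region within 1 kb: WRKY2 and WRKY34 of pollen development, WRKY3, the seed size gene WRKY10, the trichome and seed coat gene WRKY44, and WRKY20, WRKY26, WRKY32 and WRKY58. WRKY2 had a region of 998 reads between 2100 and 2200 bp away. Of the relatives WRKY25, WRKY26 and WRKY33, WRKY26 had none within 3 kb.

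In group III, WRKY70 (AT3G56400), which acts between the salicylic acid and jasmonic acid pathways, had 2153 reads (2063 to 2246) inside the gene at chr3:20909178-20909300. The FDR was 4.04e-41%, the rank 670, and no other protein-coding gene lay within 1 kb. The other 3 genes with a region had far fewer reads. WRKY41 (AT4G11070) had 256 reads (226 to 289) in a region that also lay inside 3xHMG-box1, WRKY55 (AT2G40740) 93 at an FDR of 13.8%, and WRKY38 (AT5G22570), a negative regulator of basal defence, 86 at an FDR of 0.706%. No region lay within 1 kb of WRKY53 and WRKY54, which act in leaf senescence, or of WRKY30, WRKY46, WRKY52, WRKY62, WRKY63, WRKY64, WRKY66 and WRKY67. WRKY70 and its closest relative WRKY54 thus stood apart, with 2153 reads inside WRKY70 and none within 1 kb of WRKY54.

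The region centre lay inside the gene at 21 of the 39 WRKY genes (53.8%, 37.2 to 69.9%), against 4210 of 7691 over all genes with a region (54.7%). Inside the genes, 11 of 21 centres lay within 500 bp of a gene end. The like share over all genes was not counted. The median length of WRKY genes with a region was 2288 bp, so stretches of 500 bp at both ends make up much of a gene. Beside the genes, 14 of 18 centres lay more than 500 bp away (77.8%, 52.4 to 93.6%), against 1847 of 3481 over all genes (53.1%) and 49.7% (41.9 to 57.5%) of the other transcription factor genes. The share of all genes lay within the WRKY interval, and the intervals of WRKY and of the other transcription factor genes overlapped. Beside regions within 500 bp were those of WRKY25, WRKY40, WRKY51 and WRKY75. Of the 10 genes with more than 1000 reads, 7 had the centre inside the gene. WRKY19, WRKY40 and WRKY47 had it beside the gene. This split was not counted over all genes. Median reads were 205 inside and 409.5 beside over the 39 WRKY genes, against 304 and 374 over all genes with a region. The gene strand was not used, so the start and the end of a gene were treated alike.

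**Figure D3:**
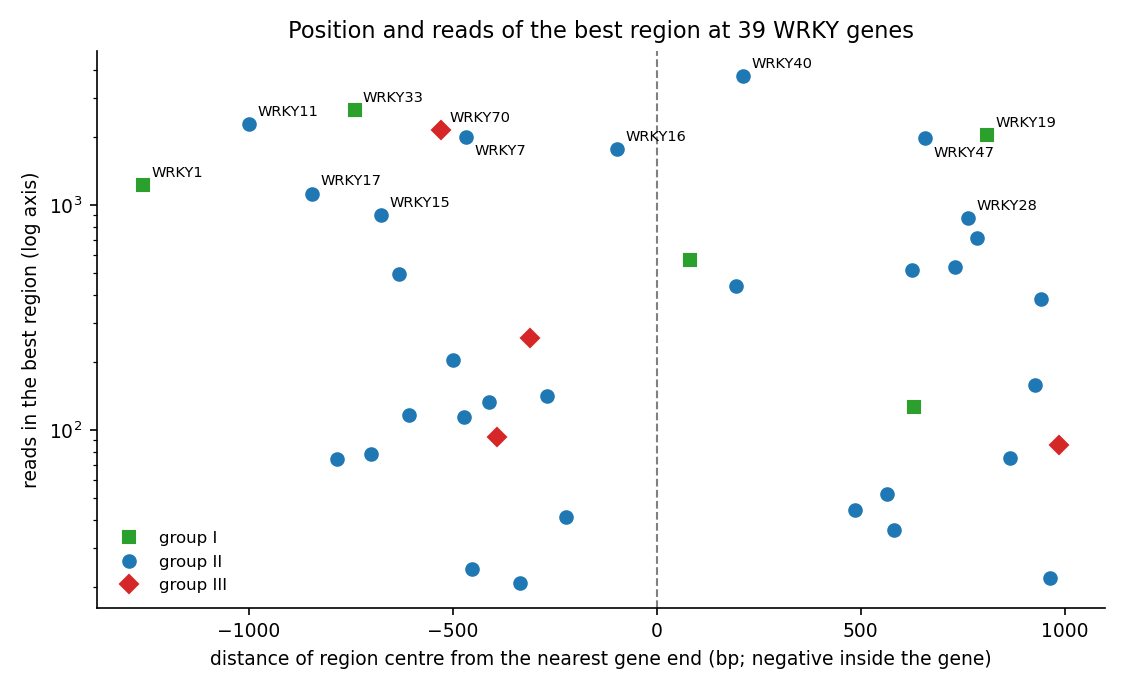
Distance in bp of the centre of the best region from the nearest gene end (negative inside the gene, positive beside it) against its reads (log axis) for the 39 WRKY genes with a region; squares are group I, circles group II and diamonds group III. Of the 18 regions beside genes, 14 lie more than 500 bp away. Median reads are 205 inside genes and 409.5 beside them, and 7 of the 10 regions with more than 1000 reads lie inside.

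At 27 of the 39 genes no other protein-coding gene lay within 1 kb of the best region, and at 12 there was at least 1. In 7 of these 12 the other gene was nearer, which was so for WRKY19, WRKY22, WRKY25, WRKY36, WRKY39, WRKY40 and WRKY60. The assay does not tell which gene such a region acts on. A member had 1 region in 33 cases, 2 in 3, 3 in 2 and 4 in 1, and no region was near more than 1 WRKY gene. These neighbours and region numbers were counted for WRKY genes alone, so no share over all genes stands beside them.

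The limit of 1 kb cut through the members' values. Just inside it, between 900 and 1000 bp, were the regions of WRKY6 with 381 reads, WRKY12 with 159, WRKY38 with 86 and WRKY21 with 22. Just outside it were WRKY3, with 459 reads between 1000 and 1100 bp away, and WRKY57 and WRKY45, with 309 and 132 reads between 1100 and 1200 bp away. Of the 33 genes with no region within 1 kb, 18 had one between 1 and 3 kb away, and 15 had none within 3 kb. With 3 kb beside genes, 79.2% of WRKY genes and 46.7% of all protein-coding genes had a region. With 1 kb these shares were 54.2% and 28.0%. Of the 39 genes with a region, 8 had a better-ranked one between 1 and 3 kb away, which was not counted over all genes. That of WRKY13, with 4374 reads at rank 60, lay at chr4:18329736-18329896. A region of 812 reads on chromosome 1 lay between 1 and 3 kb from both WRKY64 and WRKY67, which are neighbours.

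When regions were taken in the order of the FDR, group II led at most points. In the top quartile of the list by FDR, 16 WRKY genes had a region (22.2%), against 8.60% of all protein-coding genes and 16.3% of the other transcription factor genes. By group these were 3 of 14 in group I, 12 of 44 in group II and 1 of 14, WRKY70, in group III. The median rank of the best region was 3716 over the 39 WRKY genes, against 3796 over all 7691 genes with a region. The ranks of the WRKY genes ran from 149 to 8915. In the top quartile lay 16 of the 39 (41.0%), against 30.7% of all genes with a region. Among the other transcription factor genes with a region the share was 36.5%.

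**Figure D4:**
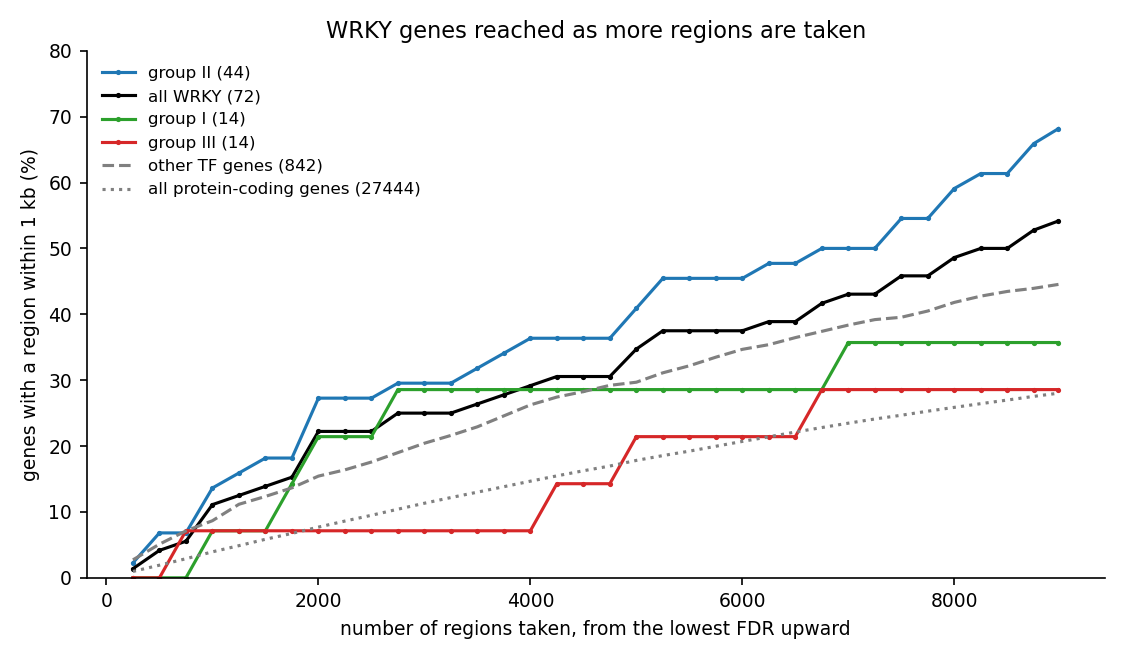
Share of genes (percent) with a region centred in them or within 1 kb as more regions are taken from the lowest FDR upward, in steps of 250 regions. Lines are group II (blue), all WRKY genes (black), group I (green), group III (red), other genes named as transcription factors (dashed) and all protein-coding genes (dotted). With all 8983 regions the lines end at 68.2% for group II, 54.2% for all WRKY genes, 35.7% for group I, 28.6% for group III, 44.5% for the other transcription factor genes and 28.0% for all genes.

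By chromosome, WRKY genes had a region at 12 of 17 genes on chromosome 2 (70.6%), 11 of 16 on chromosome 4 (68.8%), 9 of 17 on chromosome 5 (52.9%), 2 of 6 on chromosome 3 (33.3%) and 5 of 16 on chromosome 1 (31.3%). Over all protein-coding genes the share ran from 26.2% on chromosome 3 to 29.7% on chromosome 2. The WRKY shares rest on 6 to 17 genes per chromosome, against 4180 to 7156 genes in all. Their intervals were not computed, and differences between chromosomes were not tested. The genes without a region on chromosome 1 were WRKY10 of group I, WRKY9, WRKY56, WRKY57, WRKY61, WRKY65 and WRKY71 of group II, and WRKY63, WRKY64, WRKY66 and WRKY67 of group III.

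From a chosen list of 25 genes linked to WRKY factors, 10 had a region in them or within 1 kb (40%, 21.1 to 61.3%). Over all protein-coding genes the share was 28.0%. Of the 10 genes, 6 had an FDR of 5% or less, against 71.7% of all genes with a region. SIB1 (AT3G56710) and SIB2 (AT2G41180), whose proteins bind WRKY33, had 1724 reads (1644 to 1807) inside the gene and 1088 (1024 to 1155) beside it. MKK4 (AT1G51660), a kinase upstream of WRKY33 phosphorylation, had 1191 reads inside the gene, with AT1G51650 also within 1 kb of the region, and PAD4 (AT3G52430), of the salicylic acid pathway, 748. These 4 genes held the most reads of the list.

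The remaining 6 genes had few reads. PR2 (AT3G57260) had 226 reads at an FDR of 6.63%, TGA3 (AT1G22070) 177 at 0.00294% and PR1 (AT2G14610) 124 at 0.465%. NPR1, PR5 and ICS1 had 34, 29 and 28 reads at FDRs of 67.5%, 87.0% and 100%. The 15 genes without a region were MKS1, MPK3, MPK4, MPK6, MKK5, MEKK1, EDS1, PAD3, FRK1, TGA2, TGA5, TGA6, PHT1;1, PHO1 and GL2.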

How the data were processed

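The deposited list of regions was used. Reads had been mapped to TAIR9, per the file headers and the submitters' processing notes. The sources used here name no aligner, peak caller or filter. The authors deposited for each region its length, a false discovery rate in percent of ChIP relative to input, and whole-number counts of reads that are not normalised. Depth beyond these counts is unknown. The 2 columns of forward and reverse reads were not used.

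Regions were ranked by false discovery rate, ties by reads; a gene's best region is the one ranked highest among those near it. Genes came from the RefSeq table of TAIR10.1, while the list names TAIR9. No coordinate of the table is printed, and distances are given in classes of 100 bp. The table holds no strand, and no protein or promoter sequence was used, so the published WRKY groups were written by hand for all 72 genes, and the planned motif search and grouping by protein were not analysed here. Members and gene lists were chosen with earlier results of these data known. Every member is named; the 12 with the highest-ranked best regions were to get full values. Other genes named as transcription factors were found by family names in symbols or synonyms. The names were not checked against the proteins, so genes of another kind that share a name may be among them. The names included PRR, RVE, CDF, BBX and COL. Assignment was tested on simulated regions. Python 3.11.15, pandas 2.3.3, NumPy 2.4.6 and SciPy 1.17.1 were used.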

Additional observations from a re-analysis of the deposited data

How the results depend on the processing

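Each group had 1 library, so leaving out a replicate was not possible. No paired analysis was possible because each group had 1 library and the groups were not compared in a test. The number of WRKY genes near a region was 16 with the top quartile of regions by false discovery rate, and the share was 22.2% with these, 37.5% with only regions whose false discovery rate was at most 5%, 41.7% with 500 bp and 79.2% with 3 kb beside genes (all protein-coding genes 8.60%, 20.1%, 22.1% and 46.7%). In group I the number was 3 with 500 bp, 9 with 3 kb, 3 with the top quartile and 3 with the nearest gene only. In group II the number was 12 with the top quartile, and the share was 27.3% with these, 45.5% at 5% or less and 88.6% with 3 kb. In group III the number was 9 with 3 kb (64.3%) and 1 with the top quartile (7.14%). With the top quartile the median reads were 1496 over all WRKY genes and 999.5 in group II. The share of best regions inside the gene was 80% with 500 bp and 29.8% with 3 kb. The WRKY share exceeded that of all genes by 26.1 percentage points, by 13.6 with the top quartile, by 17.4 with regions at 5% or less, and that of genes named as transcription factors, WRKY included, by 8.87. These shifts follow from fewer regions, another distance or another set of genes. Some medians changed by more than 1.5 times but lay within the wide interval of the reported one. Over all WRKY genes these were 502 with 3 kb, 572 at 5% or less and 159 with the nearest gene only. In group I they were 572 with 3 kb and 2051 with the top quartile. In group II they were 502 with 3 kb, 523 at 5% or less and 310.5 as the sum over regions. In group III it was 2153 with the top quartile. The interval of the median was the full range of values in group I, 126 to 2640, and in group III, 86 to 2153. With so few genes it falls short of 95%, and settings that only drop regions could hardly leave it. Of 117 values, 94 lay within 1.5 times the reported count or, for shares, medians and differences, within the interval of the reported value. They included the settings with any overlap, the region with the most reads, the sum over regions and, chosen after seeing the data, WRKY45 in group I and leaving out WRKY16, WRKY19 and WRKY52. With 14 genes each, groups I and III give wide intervals.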
